A study of Mus musculus with 9 samples.

Results

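The S6 kinases and the translation regulators they act on were followed as 10 genes in mouse pancreas, chosen by symbol from the deposited table of 46078 gene rows. They are the S6 kinase genes Rps6kb1 and Rps6kb2, the p90 ribosomal S6 kinase (RSK) genes Rps6ka1 and Rps6ka3, the substrate genes Eif4b, Pdcd4, Eef2k and Poldip3, and the 4E-BP genes Eif4ebp1 and Eif4ebp2. All 10 were found, each as 1 row, and all 10 entered the tests, which took the 11953 genes averaging 10 normalized counts or more. Polyadenylated RNA was sequenced with strand-specific libraries from ground whole pancreas of 8-week-old mice. The groups were 3 littermates of wild type (WT), 3 mice with a knock-in labelled KI at Snd1 (Snd1_KI) and 3 mice with an allele of S6k2 labelled RK (S6k2_RK), where S6k2 is the product name for Rps6kb2. The base changes, the zygosity and the strain of these mice are not given in the sources used here. The series title ties the alleles to binding of methylated S6K2 by the Tudor domain of SND1. RNA of ground tissue comes from every cell type in it, and in such bulk samples fewer cells of a type and less RNA per cell cannot be told apart.

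The kinase complex mTORC1 phosphorylates S6K1 and S6K2, which then phosphorylate ribosomal protein S6 and several regulators of protein synthesis, and RSK kinases reach some of the same sites downstream of ERK. Among those regulators, eIF4B stimulates the helicase eIF4A, PDCD4 holds eIF4A inactive until it is phosphorylated and degraded, eEF2K slows elongation by phosphorylating eEF2, and POLDIP3, also called SKAR, brings S6K1 to newly spliced mRNA. The 4E-BP proteins are direct mTORC1 substrates that bind the cap-binding protein eIF4E. All of this is control of protein activity or stability, while the data here are transcript levels. The acinar cells that make up most of the pancreas produce large amounts of secreted enzyme, and the S6 kinases are studied there as part of the response to feeding and hormones.

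Reads assigned to genes numbered 13461427 to 21034501 per library, and 1 read was worth between 0.774 and 1.34 normalized counts. Library totals in normalized counts were 12769461 to 13238756 in WT, 15491337 to 16290582 in Snd1_KI and 16749985 to 20607886 in S6k2_RK, without overlap. Markers of the labelled tissue were abundant. The summed level of 8 acinar markers was 3603205 to 4088163 normalized counts in WT and 5130211 to 5383128 in Snd1_KI. It was higher still in S6k2_RK, 5581222 to 7061490, without overlap between any groups. The enzyme genes Cpa1, Cel, Pnlip and Ctrb1 made up nearly all of this sum. Among the others, Ptf1a and Nr5a2 were higher in all mutant libraries than in WT, and Bhlha15 overlapped between the groups. Rbpjl was lower, at 686 to 833 in WT, 554 to 613 in Snd1_KI and 436 to 555 in S6k2_RK. Sums for 6 T-cell markers were lower in the mutants, 232 to 622 in WT, 24.0 to 57.1 in Snd1_KI and 25.5 to 31.0 in S6k2_RK. B-cell and macrophage sums were also below WT in every mutant library, and so, narrowly in S6k2_RK, were endothelial sums. Of the single macrophage and endothelial markers, Adgre1, Csf1r, Lyz2, Cdh5 and Kdr overlapped with WT. Adipocyte, islet and fibroblast sums overlapped with WT in both mutants. Under the authors' scaling the median tested gene stood still (log2 fold change 0.0027 in Snd1_KI and 0.0024 in S6k2_RK against WT). When all libraries were put at equal totals instead, it moved by -0.28 and -0.51, so that higher and lower values under the authors' scaling are relative to the median gene, and values at equal totals include its shift.

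Promoter sequences from RefSeq on GRCm38.p6 were matched for 6 of the 10 genes by symbol, with 11 transcription starts between them. Rps6kb2, Rps6ka3, Poldip3 and Eif4ebp1 are named only. Shown here are the genes whose transcripts passed the test in at least 1 mutant and for which a promoter was matched, with Rps6kb1 beside them as the paralogue of the gene altered in S6k2_RK; Rps6ka1 and Eif4ebp2, which like Rps6kb1 did not pass, are given by their motifs alone. Each line runs 5′ to 3′ on the strand of the gene, from 150 bases before the annotated start to 20 bases from it. Capitals mark exact matches, on either strand, to a motif searched.
Eif4b, chr15:102073623-102073792, plus strand: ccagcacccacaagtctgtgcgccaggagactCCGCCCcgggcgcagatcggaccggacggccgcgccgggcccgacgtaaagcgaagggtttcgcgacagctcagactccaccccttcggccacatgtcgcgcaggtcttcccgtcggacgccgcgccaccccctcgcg
Pdcd4, upstream start, chr19:53892081-53892250, plus strand: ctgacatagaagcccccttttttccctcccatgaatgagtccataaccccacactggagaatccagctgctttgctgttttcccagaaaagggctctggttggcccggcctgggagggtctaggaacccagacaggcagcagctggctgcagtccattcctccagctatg
Pdcd4, downstream start, chr19:53903201-53903370, plus strand: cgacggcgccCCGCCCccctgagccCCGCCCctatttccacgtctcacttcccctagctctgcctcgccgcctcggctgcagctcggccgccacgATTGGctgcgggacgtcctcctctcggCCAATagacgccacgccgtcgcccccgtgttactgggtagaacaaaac
Eef2k, first start, chr7:120842681-120842850, plus strand: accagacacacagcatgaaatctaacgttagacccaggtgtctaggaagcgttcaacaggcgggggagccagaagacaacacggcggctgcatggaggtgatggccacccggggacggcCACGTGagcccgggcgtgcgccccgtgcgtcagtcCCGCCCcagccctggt
Rps6kb1, chr11:86544788-86544957, minus strand: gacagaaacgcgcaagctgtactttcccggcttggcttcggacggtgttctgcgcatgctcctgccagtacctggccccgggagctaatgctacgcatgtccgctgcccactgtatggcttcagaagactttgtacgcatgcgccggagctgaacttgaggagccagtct

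The motifs searched were the GC box GGGCGG, the CCAAT box CCAAT, the E-box CACGTG, the cAMP response element TGACGTCA, an ATF4-CEBP element TGATGNAA and the TATA box TATAAA, in windows of 300 bases (250 before and 50 from the start). The motifs do not contain one another. Eif4b had GC boxes starting at -167 and -118. The downstream start of Pdcd4 had GC boxes at -236, -140 and -125 and CCAAT boxes at -55 and -28, while its upstream start had no match. The first Eef2k start had an E-box at -31 and GC boxes at -196 and 5. Eef2k starts 2 and 3 are not printed. Start 2 had a GC box at -74, and start 3 had the only ATF4-CEBP match among the 11 windows, at -84. The Rps6kb1 window had no match. Among the other genes that did not pass, the first Rps6ka1 start had GC boxes at -108, -66 and -47 and a CCAAT box at -29, another Rps6ka1 start had a CCAAT box at -66, and Eif4ebp2 had GC boxes at -215 and -46. These motifs were thus found both in genes that passed and in genes that did not. Among 32851 promoters of the same length, 35.7% held the GC box, 37.4% the CCAAT box, 7.15% the E-box, 1.79% the cAMP response element, 3.97% the ATF4-CEBP element and 13.6% the TATA box. A match describes letters in a window and is not a measured binding site.

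The transcripts of these genes lay at very different levels when counted per kilobase of merged exon. In WT, Eif4b stood at 364 ± 26.1 normalized counts per kb (SD, n = 3 here and below), Eif4ebp1 at 315 ± 23.5 and Pdcd4 at 243 ± 5.73. These 3 were followed, at a distance, by Rps6kb1 at 52.3 ± 4.96, Poldip3 at 42.8 ± 2.98, Eef2k at 34.8 ± 2.43 and Eif4ebp2 at 33.7 ± 10.4. The RSK genes Rps6ka1 and Rps6ka3 were at 24.6 ± 4.63 and 24.2 ± 0.666, and Rps6kb2 was lowest at 11.2 ± 1.32. Neighbours in this order whose WT libraries overlapped were Eef2k and Eif4ebp2, Eif4ebp2 and Rps6ka1, and Rps6ka1 and Rps6ka3. In Snd1_KI the order per kb changed in the middle only, with Eef2k at 48.5 ± 2.60, Rps6kb1 at 45.9 ± 3.53 and Eif4ebp2 at 44.3 ± 3.89 overlapping one another in turn. In S6k2_RK, Eif4ebp1 at 408 ± 32.5 and Pdcd4 at 405 ± 54.1 overlapped, and Rps6kb2 stood at 6.85 ± 3.45. The merged exon length of Rps6kb2 is 5167 bases while its annotated coding transcripts run from 642 to 4586 bases, so its level per kb depends on the length taken.

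**Figure D1:**
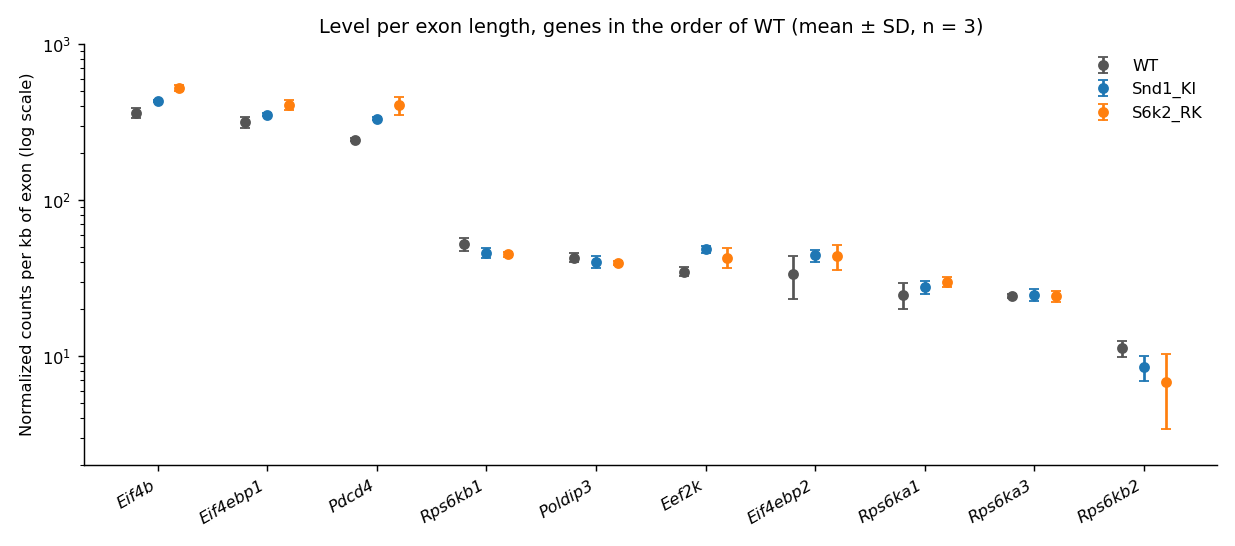
Level of each gene in normalized counts per kb of merged exon (log scale), in the order of WT, with points for the mean of 3 libraries of a group and bars for the SD. Eif4b, Eif4ebp1 and Pdcd4 stand apart at 243 or more in every group mean, and Rps6kb2 is lowest, from 11.2 in WT to 6.85 in S6k2_RK.

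Rps6kb2 encodes S6K2, the protein altered in S6k2_RK mice, and was measured first among the kinases (ENSMUSG00000024830, GRCm38 chr19:4153991-4163354, minus strand). Its normalized counts were 55.0, 65.8 and 53.1 in WT, 42.4, 52.7 and 36.4 in Snd1_KI, and 56.0, 25.5 and 24.7 in S6k2_RK replicates 1, 2 and 3. S6k2_RK replicate 1 lay within the WT range, the other two S6k2_RK libraries lay below every other library, and the 3 Snd1_KI libraries lay below the lowest WT library, replicate 2 only just. The log2 fold change (on log2 of the normalized count plus 1) was -0.79 ± 0.29 (SE) in S6k2_RK and -0.41 ± 0.29 in Snd1_KI. Neither passed the test (limma, Benjamini-Hochberg adjusted p = 0.0772 and 0.459). Without S6k2_RK replicate 1 the gene fell by 1.17 on the log2 scale (limma adjusted p = 0.00559), and without replicate 2 or 3 of that group the estimate was -0.62 or -0.59 and did not pass (limma adjusted p = 0.228 and 0.263). Since an allele can change the protein and leave the mRNA level as it was, Rps6kb2 mRNA is no check of which library is which genotype.

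Few reads stood behind Rps6kb2. The 3 S6k2_RK libraries had 56, 19 and 20 reads, with 95% exact Poisson intervals of 42.3 to 72.7, 15.4 to 39.8 and 15.1 to 38.2 normalized counts that cover counting error only. The interval of S6k2_RK replicate 1 did not touch those of the other two, so these libraries differed by more than counting error. The gene also shares sequence space with a neighbour. Its principal transcript shares 1224 exon bases with Ptprcap, a gene of lymphocytes on the opposite strand (chr19:4153604-4156751), and none of these bases codes for S6K2. The libraries are strand-specific, but the strand setting of the counting was not given in the sources used here. Ptprcap stood at 28.8, 76.6 and 60.0 normalized counts in WT, 8.66, 3.10 and 3.21 in Snd1_KI and 7.00, 1.34 and 1.24 in S6k2_RK. It fell in both mutants (log2 fold change -3.24 ± 0.60 and -3.91 ± 0.60, limma adjusted p = 0.00373 and 0.000376). In S6k2_RK replicate 1 Rps6kb2 was at the WT level while Ptprcap was at 7.00. The sum of 5 adipocyte markers was 1464, 578 and 596 in the S6k2_RK libraries, high in the same library as Rps6kb2. Fabp4 alone was at 1097 in that library. In WT the sums were 1673, 1266 and 1855, and replicate 2 had the lowest sum and the highest Rps6kb2. In Snd1_KI they were 941, 1458 and 1185, and replicate 2 was highest for both. The sum of 4 fibroblast markers, at 3822, 3598 and 2560 in S6k2_RK, was also highest in S6k2_RK replicate 1. Like the adipocyte sum, it was lowest in replicate 2 within WT and highest in replicate 2 within Snd1_KI. Within S6k2_RK the T-cell and endothelial sums were also highest in replicate 1. B-cell and macrophage sums were highest in replicate 2, and acinar, islet and ductal sums in replicate 3. The part of the neighbour's reads and of adipose or other tissue in the Rps6kb2 values was not tested.

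**Figure D2:**
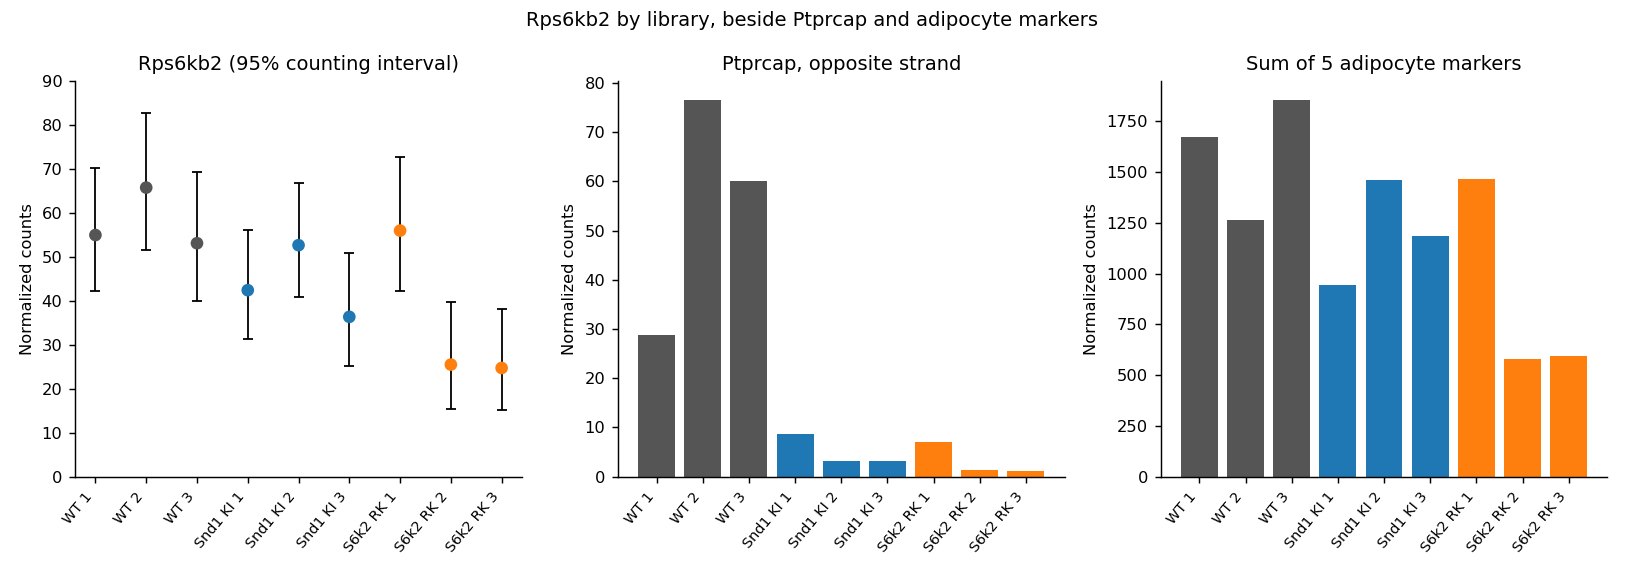
Normalized counts by library for Rps6kb2 (points, with 95% Poisson intervals for counting error), for Ptprcap on the opposite strand and for the sum of 5 adipocyte markers (bars from 0). The other marker lists are not drawn. S6k2_RK replicate 1 has 56.0 for Rps6kb2 and 1464 for the adipocyte sum, against 25.5 and 24.7, and 578 and 596, in the other two S6k2_RK libraries, while Ptprcap is at 8.66 or lower in all 6 mutant libraries.

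Rps6kb1 encodes S6K1, the other S6 kinase (ENSMUSG00000020516, chr11:86498871-86544805, minus strand). It had 503, 430 and 427 normalized counts in WT, 410, 362 and 419 in Snd1_KI and 402, 385 and 377 in S6k2_RK. Every mutant library lay below the lowest WT library, though WT replicate 3 and Snd1_KI replicate 3 were close. The log2 fold change was -0.19 ± 0.11 in Snd1_KI and -0.22 ± 0.11 in S6k2_RK, and neither passed the test (limma adjusted p = 0.38 and 0.228). Without WT replicate 1, the highest library, they were -0.11 and -0.14, and without Snd1_KI replicate 2, the lowest, the first was -0.12. At equal library totals, Rps6kb1 was called lower in both mutants, by -0.47 (adjusted p = 0.029) and -0.74 (limma adjusted p = 0.000629), where the median gene was also lower by 0.28 and 0.51. Rps6kb1 shares 155 exon bases with Rnft1 on the opposite strand, whose log2 fold changes of -0.04 and 0.20 did not pass (limma adjusted p = 0.932 and 0.435).

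The balance of the 2 S6 kinase transcripts within a library does not depend on scaling. The log2 ratio of Rps6kb2 to Rps6kb1 was -3.17, -2.69 and -2.98 in WT, -3.24, -2.76 and -3.49 in Snd1_KI, and -2.82, -3.87 and -3.88 in S6k2_RK. The ratio was lowest in S6k2_RK replicates 2 and 3, and the groups overlapped in every pairing. S6k2_RK differed from WT by -0.57 (exact two-sided permutation p = 0.3), Snd1_KI from WT by -0.22 (exact p = 0.4) and S6k2_RK from Snd1_KI by -0.36 (exact p = 0.5). With each library left out in turn these differences ranged from -0.92 to -0.40, from -0.42 to -0.054 and from -0.71 to -0.15. The smallest p that 3 against 3 can give is 0.1, and the Benjamini-Hochberg values over the 9 ratio tests were 0.6 or higher.

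The genes whose course over the 9 libraries was nearest to each S6 kinase gene were found by the root mean square difference of log2 levels, each gene centred on its own mean, among 11584 genes with a symbol. For Rps6kb2 these were Fmo1 (0.104), Capg (0.136) and Ip6k2 (0.171), where the median gene stood at 0.544. Fmo1, a flavin monooxygenase gene, averaged 76.5 ± 13.1 (WT), 56.5 ± 14.3 (Snd1_KI) and 44.2 ± 24.1 normalized counts (S6k2_RK), and Capg, an actin-capping gene, 108 ± 11.6, 75.4 ± 8.70 and 65.1 ± 24.0. For Rps6kb1 the nearest were Amotl1 (0.0544), Rfx7 (0.0554) and Zfp142 (0.0574), where the median gene stood at 0.292. All 9 libraries enter each value, and these are descriptions of likeness in 3 groups of libraries.

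Neither RSK gene passed the test in either mutant. Rps6ka1, which encodes RSK1 (ENSMUSG00000003644, chr4:133847290-133887797), had 82.0, 115 and 117 normalized counts in WT, 116, 131 and 108 in Snd1_KI and 118, 129 and 136 in S6k2_RK. WT replicate 1 was the lowest of all libraries, and the S6k2_RK libraries lay above every WT library by a small margin. The log2 fold changes of Rps6ka1 were 0.19 ± 0.17 and 0.30 ± 0.17, and neither passed (limma adjusted p = 0.582 and 0.271). Without WT replicate 1 they were 0.022 and 0.13, and without Snd1_KI replicate 2 the first was 0.11. Rps6ka3, which encodes RSK2 (ENSMUSG00000031309, chrX:159210307-159368244), had 204, 204 and 195 in WT, 185, 212 and 220 in Snd1_KI and 183, 204 and 218 in S6k2_RK. Its group means of 201 ± 5.54, 206 ± 18.3 and 202 ± 17.5 were the closest of the 10 genes, and its log2 fold changes were 0.03 ± 0.13 and -0.00048 ± 0.13 (limma adjusted p = 0.933 and 0.999).

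**Figure D3:**
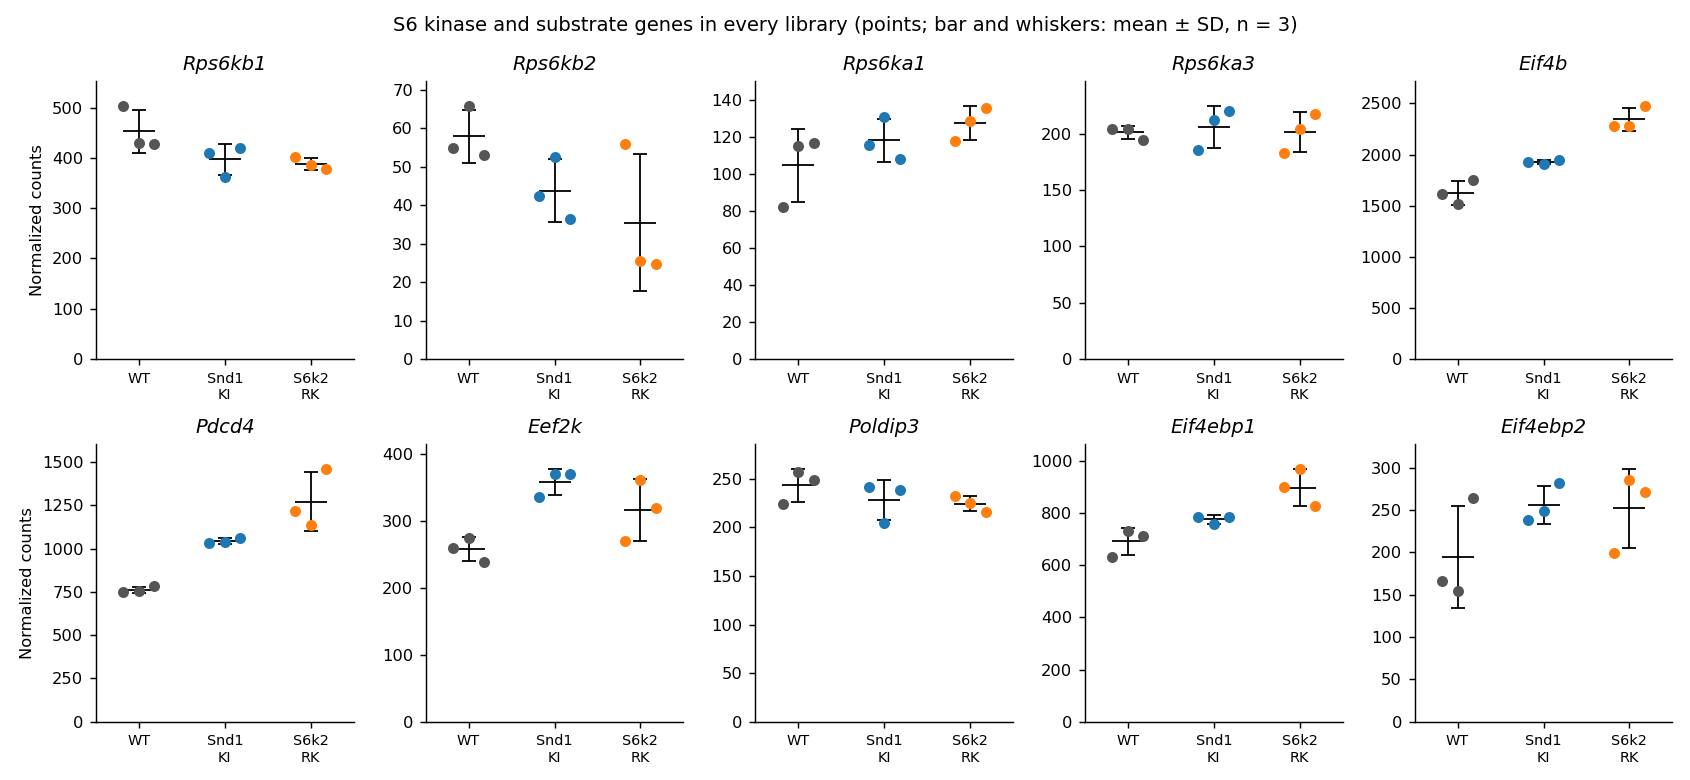
Normalized counts of the 10 genes by group (vertical axes from 0), with points for single libraries, a bar for the mean and whiskers for the SD of 3 libraries. All S6k2_RK libraries of Eif4b, Pdcd4 and Eif4ebp1 lie above all Snd1_KI libraries, which lie above all WT libraries, and Rps6kb2 has 1 S6k2_RK library at 56.0, apart from the other two. The library totals in normalized counts have the same order of groups, and the share of all genes with this order was not counted.

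Among the substrates, Pdcd4 was higher in both mutants, Eif4b in S6k2_RK and Eef2k in Snd1_KI. Pdcd4 encodes the inhibitor of eIF4A that S6 kinases mark for degradation (ENSMUSG00000024975, chr19:53892231-53929860). It stood at 750, 756 and 784 normalized counts in WT, 1030, 1037 and 1063 in Snd1_KI and 1218, 1134 and 1460 in S6k2_RK. The 3 groups were fully separate, WT and Snd1_KI were tight, and S6k2_RK replicate 3 was the highest. Pdcd4 rose 1.37-fold in Snd1_KI (log2 0.45 ± 0.10, limma adjusted p = 0.0164) and 1.65-fold in S6k2_RK (log2 0.73 ± 0.10, limma adjusted p = 0.000239). The S6k2_RK call held in all 9 fits that each left out 1 library (highest adjusted p = 0.00202). Leaving out WT replicate 1 or 2, or any Snd1_KI library, ended the Snd1_KI call (limma adjusted p up to 0.0763), with the log2 fold change between 0.44 and 0.47 in all 9 fits.

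As RPM, reads scaled to equal library totals, Pdcd4 stood at 58.8, 57.9 and 59.2 in WT, 66.5, 63.7 and 67.1 in Snd1_KI and 72.7, 60.1 and 70.9 in S6k2_RK. The mutant libraries were still above every WT library, by less, and S6k2_RK replicate 2 was the nearest to WT. At equal library totals the log2 fold changes of Pdcd4 were 0.17 and 0.21 and no longer passed (limma adjusted p = 0.281 and 0.0972). The acinar marker sums given above were separated between the groups in the same order. Sums of 5 ductal markers were 1387 to 1397 in WT, 2114 to 2218 in Snd1_KI and 2122 to 2420 in S6k2_RK. Muc1 made up most of each ductal sum, at 957 to 975 in WT, 1523 to 1639 in Snd1_KI and 1527 to 1876 in S6k2_RK. Krt19 was also above WT in both mutants, while Krt7, Sox9 and Cftr overlapped between S6k2_RK and WT. No marker of these lists was at 0 in every library, and the part of cell composition in the substrate values was not tested.

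Eif4b encodes the helicase cofactor eIF4B (ENSMUSG00000058655, chr15:102073773-102097173). Its normalized counts were 1610, 1516 and 1748 in WT, 1931, 1904 and 1944 in Snd1_KI and 2283, 2276 and 2472 in S6k2_RK. As for Pdcd4, the 3 groups did not overlap and Snd1_KI lay between the others. Eif4b rose 1.44-fold in S6k2_RK (log2 0.53 ± 0.09, limma adjusted p = 0.0012), a call that held in all 9 fits leaving out 1 library (highest adjusted p = 0.00939). In Snd1_KI the log2 fold change was 0.25 ± 0.09 and did not pass (limma adjusted p = 0.135). At equal library totals the estimates were -0.04 and 0.0097, and Eif4b stood at 116 to 132 RPM in WT, 117 to 125 in Snd1_KI and 120 to 136 in S6k2_RK. The groups overlapped on that scale.

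The activator and the inhibitor of eIF4A were also set against each other within a library. The log2 ratio of Eif4b to Pdcd4 averaged 1.09 ± 0.08 (WT), 0.88 ± 0.02 (Snd1_KI) and 0.89 ± 0.12 (S6k2_RK). Snd1_KI differed from WT by -0.20 with no overlap (exact two-sided permutation p = 0.1, the smallest possible) and S6k2_RK from WT by -0.20 with overlap (exact p = 0.2), or -0.13 without S6k2_RK replicate 3. The mutants differed by 0.0059 (exact p = 0.9). Eif4a1, which encodes the helicase itself and was named after its values were seen, had log2 fold changes of 0.03 ± 0.11 and -0.02 ± 0.11, which did not pass (limma adjusted p = 0.934 and 0.931).

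Eef2k encodes the kinase that inhibits eEF2 (ENSMUSG00000035064, chr7:120842831-120907450). It had 260, 275 and 239 normalized counts in WT, 337, 370 and 370 in Snd1_KI and 270, 362 and 320 in S6k2_RK. All Snd1_KI libraries lay above WT, while S6k2_RK replicate 1 lay within the WT range and the other two above it. Eef2k rose 1.39-fold in Snd1_KI (log2 0.48 ± 0.13, limma adjusted p = 0.0352), a call lost without any single WT or Snd1_KI library (limma adjusted p up to 0.134, log2 fold change 0.42 to 0.52). In S6k2_RK the log2 fold change was 0.29 ± 0.13 (limma adjusted p = 0.151), and without S6k2_RK replicate 1 it was 0.40 and passed (limma adjusted p = 0.042), while without S6k2_RK replicate 2 it was 0.19 (limma adjusted p = 0.423). At equal library totals the estimates were 0.19 in Snd1_KI (limma adjusted p = 0.321) and -0.23 in S6k2_RK (limma adjusted p = 0.142), the second of the opposite sign.

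Poldip3, the SKAR gene (ENSMUSG00000041815, chr15:83125976-83149384), had 224, 257 and 249 normalized counts in WT, 242, 204 and 238 in Snd1_KI and 232, 225 and 216 in S6k2_RK. The groups overlapped, and the log2 fold changes of -0.09 ± 0.13 and -0.11 ± 0.13 did not pass (limma adjusted p = 0.734 and 0.611). With each library left out in turn they ranged from -0.15 to -0.017 in Snd1_KI and from -0.17 to -0.073 in S6k2_RK, with no call. At equal library totals Poldip3 was called lower in S6k2_RK (-0.63, limma adjusted p = 0.00288), again with the median gene lower by 0.51.

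Of the 4E-BP genes, Eif4ebp1 was higher in S6k2_RK. Eif4ebp1 (ENSMUSG00000031490, chr8:27260329-27276674) encodes 4E-BP1, which binds eIF4E when unphosphorylated. It stood at 633, 729 and 713 normalized counts in WT, 784, 757 and 784 in Snd1_KI and 898, 968 and 825 in S6k2_RK. The 3 groups did not overlap and had the same order as for Eif4b and Pdcd4, and as the library totals in normalized counts. How many of all tested genes have this order was not counted. Eif4ebp1 rose 1.30-fold in S6k2_RK (log2 0.37 ± 0.10, limma adjusted p = 0.0243). It was not called when WT replicate 1 or S6k2_RK replicate 2 was left out (limma adjusted p up to 0.121) and in the fit of only these 2 groups (limma adjusted p = 0.0602). In Snd1_KI the log2 fold change was 0.17 ± 0.10 (limma adjusted p = 0.392), and 0.10 without WT replicate 1. At equal library totals both estimates were below 0, at -0.15 in S6k2_RK and -0.12 in Snd1_KI. As RPM the groups overlapped, at 49.5 to 55.8 in WT, 46.4 to 50.6 in Snd1_KI and 40.0 to 53.6 in S6k2_RK.

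Eif4ebp2 (ENSMUSG00000020091, chr10:61428491-61452661) encodes 4E-BP2, which acts in the same way. It had 167, 154 and 264 normalized counts in WT, 238, 249 and 281 in Snd1_KI and 199, 286 and 271 in S6k2_RK. WT replicate 3 lay far above the other two WT libraries and among the mutant ones, so the groups overlapped. The log2 fold changes were 0.43 ± 0.18 and 0.39 ± 0.18 and did not pass (limma adjusted p = 0.19 and 0.174). Without WT replicate 3 they were 0.67 and 0.63 and passed (limma adjusted p = 0.024 and 0.0213), while without WT replicate 2 they were 0.28 and 0.25 (limma adjusted p = 0.54 and 0.484). The log2 ratio of Eif4ebp1 to Eif4ebp2 averaged 1.86 ± 0.40 (WT), 1.60 ± 0.12 (Snd1_KI) and 1.84 ± 0.29 (S6k2_RK), with exact two-sided permutation p = 0.4 (Snd1_KI against WT), 1 (S6k2_RK against WT) and 0.2 (the 2 mutants).

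**Figure D4:**
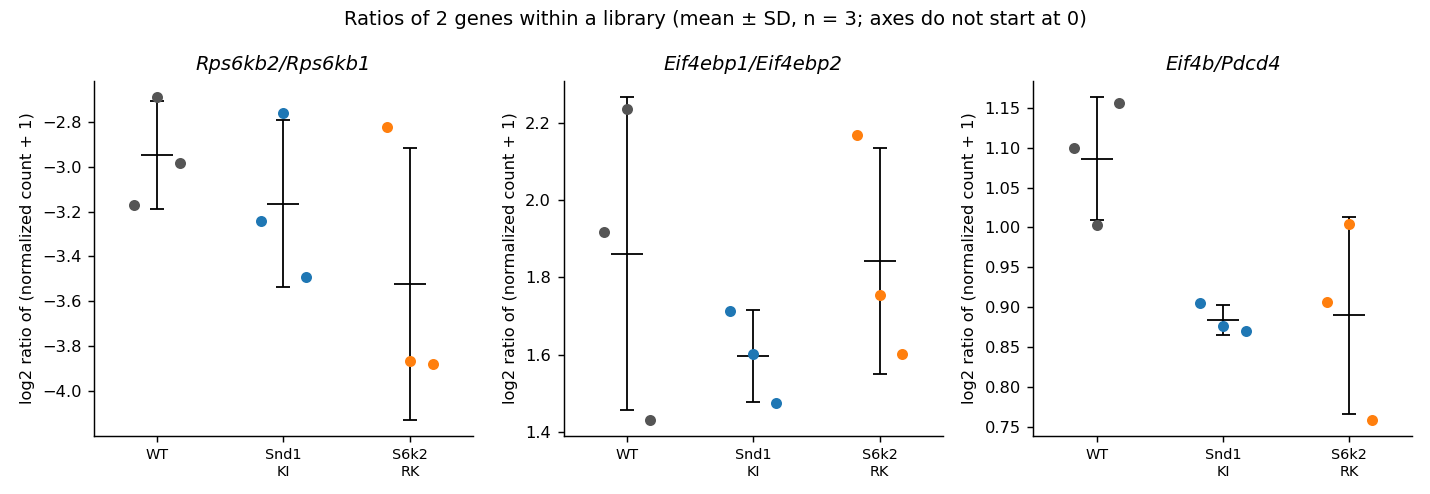
Log2 ratio of 2 transcripts within each library (points), with the mean and SD of 3 libraries of a group; the vertical axes do not start at 0. For Eif4b over Pdcd4 all Snd1_KI libraries lie below all WT libraries, with means of 0.88 and 1.09, while the other ratios overlap between the groups.

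Over the 10 genes, limma called 2 in Snd1_KI against WT, both higher, where it called 5.61% of all tested genes (2.4% higher and 3.2% lower). The libraries of 6 of the 10 did not overlap between Snd1_KI and WT, 4 higher and 2 lower, against 27.1% of all genes. In S6k2_RK against WT, 3 of 10 were called, all higher, where 12.0% of all genes were called (5.2% higher and 6.83% lower), and 5 did not overlap, against 28.3%. The median log2 fold change of the 10 genes was 0.18 in Snd1_KI and 0.29 in S6k2_RK. The 2 comparisons share the 3 WT libraries, so that a high or low WT library moves a gene the same way in both. With 10 genes, each called gene is 10 percentage points, and these counts describe the genes without showing that they differ from others.

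**Figure D5:**
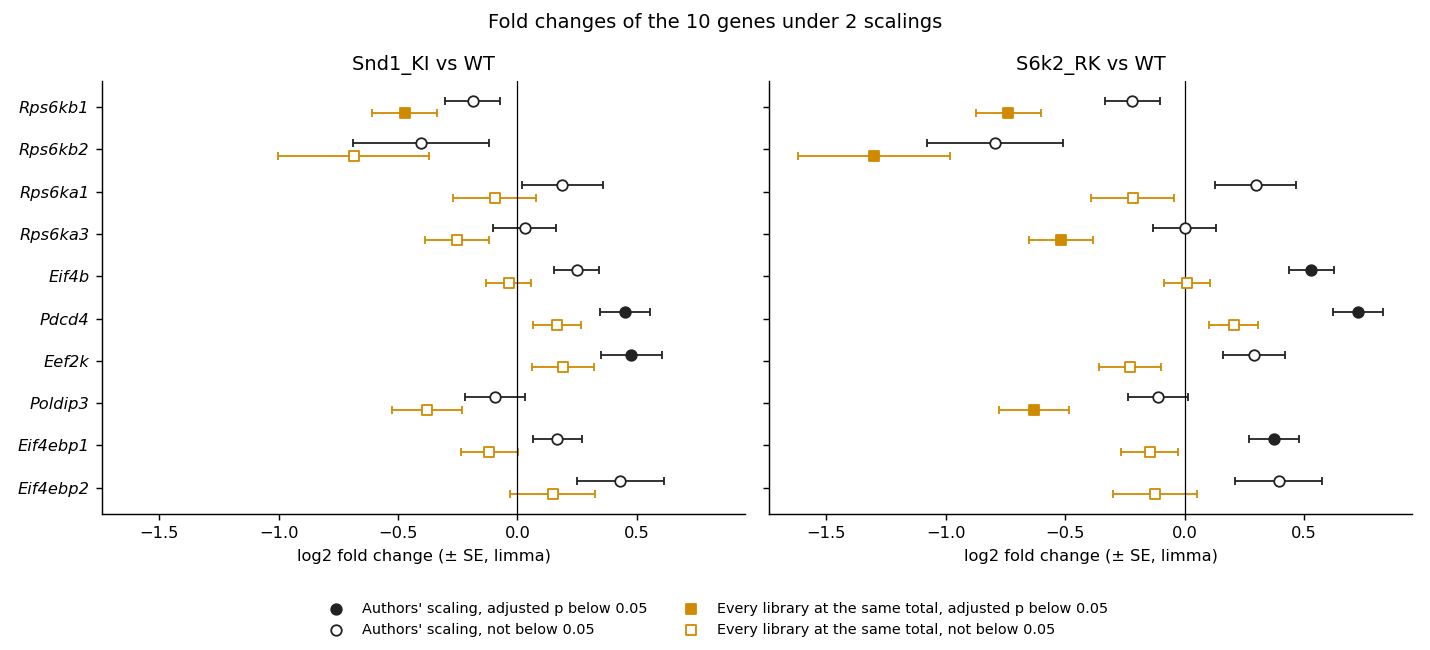
Log2 fold change of each gene against WT (± SE, limma) in Snd1_KI on the left and S6k2_RK on the right, under the authors' scaling (circles) and at equal library totals (squares); filled symbols have adjusted p below 0.05. Under the authors' scaling Pdcd4 and Eef2k pass in Snd1_KI and Eif4b, Pdcd4 and Eif4ebp1 in S6k2_RK, all higher; at equal totals the genes that pass are lower, Rps6kb1 in Snd1_KI and Rps6kb1, Rps6kb2, Rps6ka3 and Poldip3 in S6k2_RK.

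Putting the libraries at equal totals changed which of these genes passed. With another scaling, TMM, 2 of the 10 genes were called in Snd1_KI and 3 in S6k2_RK, all higher, as under the authors' scaling. At equal totals 1 gene was called in Snd1_KI (Rps6kb1) and 4 in S6k2_RK (Rps6kb1, Rps6kb2, Rps6ka3 and Poldip3), all lower, where 13.2% and 49.8% of all genes were called lower, and 0.376% and 0.31% higher. The log2 fold changes of the 4 genes in S6k2_RK were -0.74, -1.30, -0.52 and -0.63. Under the authors' scaling and at equal totals alike, Pdcd4 had the highest estimate of the 10 genes in S6k2_RK and Rps6kb2 the lowest. Of all tested genes, 45 were then higher and 1581 lower in Snd1_KI, in place of 287 and 383, and 37 and 5954 in S6k2_RK, in place of 621 and 816.

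The mutants were also compared with each other. None of the 10 genes passed in S6k2_RK against Snd1_KI by limma, edgeR or DESeq2, where limma called 14 genes in all, 0.117% of those tested (0.0586% higher and 0.0586% lower). At an unadjusted p below 0.05 limma had 2 of the 10 genes and 1207 of the 11953 tested genes. These 2 were Eif4b, with a log2 difference of 0.28 ± 0.09 (limma adjusted p = 0.282), and Pdcd4, with 0.28 ± 0.10 (limma adjusted p = 0.367). Eif4b, Pdcd4 and Eif4ebp1 had S6k2_RK libraries all above the Snd1_KI libraries. Counted in either direction, these 3 of 10 did not overlap, against 15.2% of all genes. Rps6kb2 differed by -0.39 ± 0.29 (limma adjusted p = 0.681) and Eef2k by -0.19 ± 0.13 (limma adjusted p = 0.655). These values do not show that the mutants are alike.

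The rest of the pathway was described through 4 lists of genes. Of 16 genes that activate or restrain mTORC1 and S6K, 2 rose in Snd1_KI and none fell, and 3 rose in S6k2_RK and none fell, with median log2 fold changes of 0.19 and 0.27. Of all tested genes 2.4% and 5.2% were called higher in these comparisons. With TMM scaling 2 of the 16 rose in Snd1_KI and 4 in S6k2_RK, where 306 and 684 of all 11953 genes were called higher. Deptor, an inhibitory partner of mTOR, rose from 613 ± 40.0 normalized counts in WT to 898 ± 55.8 in Snd1_KI and 857 ± 91.7 in S6k2_RK (log2 0.55 ± 0.11 and 0.48 ± 0.11, limma adjusted p = 0.00558 and 0.00772). Both Deptor calls held in all 9 fits leaving out 1 library. Akt1, a kinase upstream of mTORC1, rose by 0.39 ± 0.10 and 0.35 ± 0.10 (limma adjusted p = 0.0277 and 0.032), and Tsc2, which restrains Rheb, by 0.57 ± 0.15 in S6k2_RK (limma adjusted p = 0.0221). The Akt1 and Tsc2 calls were each lost without several single libraries, WT replicates 1 and 2 among them (limma adjusted p up to 0.158). At equal totals none of these 5 calls passed, the estimates for Deptor and Akt1 in S6k2_RK turned to -0.04 and -0.17, and 1 of 16 genes of the list was lower in Snd1_KI and 6 in S6k2_RK, against 13.2% and 49.8% of all genes.

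Around the cap-binding complex, 15 of 16 listed genes were tested. Eef2, the elongation factor that eEF2K phosphorylates, rose from 13719 ± 1615 normalized counts in WT to 19476 ± 969 in Snd1_KI and 22380 ± 2020 in S6k2_RK (log2 0.51 ± 0.12 and 0.71 ± 0.12, limma adjusted p = 0.0144 and 0.000668). Mknk2, a kinase of eIF4E, fell from 426 ± 51.0 to 299 ± 24.2 and 254 ± 44.5 (log2 -0.51 ± 0.14 and -0.75 ± 0.14, limma adjusted p = 0.042 and 0.002). Both calls in S6k2_RK held in all 9 fits leaving out 1 library, and both in Snd1_KI were lost when WT replicate 2, Snd1_KI replicate 2 or Snd1_KI replicate 3 was left out, among others (limma adjusted p up to 0.167). At equal totals Mknk2 stayed called lower in both mutants (-0.79 and -1.27), while Eef2 did not pass (0.23 and 0.19). Larp1, which binds mRNAs with a terminal oligopyrimidine tract, rose by 0.48 ± 0.15 in S6k2_RK (limma adjusted p = 0.0481), was lost in 7 of the 9 fits leaving out 1 library (limma adjusted p up to 0.211) and was at -0.04 at equal totals. The list had 1 rise and 1 fall in Snd1_KI and 2 rises and 1 fall in S6k2_RK, with medians of -0.06 and 0.08, where 5.61% and 12.0% of all genes were called. At equal totals it had 0 rises and 3 falls in Snd1_KI and 0 and 12 in S6k2_RK, against 13.2% and 49.8% of all genes lower.

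Among 10 other S6K substrates none passed in Snd1_KI and 1 rose in S6k2_RK, where 5.2% of all genes were called higher. That gene was Rps6, which encodes the ribosomal protein the kinases are named for, with means of 4313 ± 82.9 (WT), 4417 ± 282 (Snd1_KI) and 5459 ± 519 normalized counts (S6k2_RK) (log2 0.34 ± 0.10 in S6k2_RK, limma adjusted p = 0.0327). The call was lost when any 1 WT library, Snd1_KI replicate 1 or S6k2_RK replicate 3 was left out (limma adjusted p up to 0.148), and the estimate turned to -0.18 at equal totals. At equal totals 2 of these 10 substrates were called lower in Snd1_KI and 6 in S6k2_RK, against 13.2% and 49.8% of all genes. Of 13 genes of the ERK cascade and other RSK-family kinases 10 were tested, and none passed in either mutant, with medians of 0.06 and 0.20. With TMM scaling 1 of the 10 was called higher in S6k2_RK. At equal totals 5 of the 10 were called lower in S6k2_RK, near the 49.8% of all genes. Between the mutants no gene of the 4 lists passed.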

How the data were processed

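Whole pancreas of 9 mice, 3 per group, was profiled by polyA-selected RNA sequencing with strand-specific libraries, per the labels' protocols. The authors deposited 1 table of normalized counts, a signal obtained by dividing each library's gene counts by 1 size factor; DESeq2 and the builds GRCm38 and mm10 are named in the submitters' processing notes. The aligner, the counter and its strand setting are not given in the sources used here. In each library 100% of nonzero values were whole multiples of the value of 1 read (within 1e-06), which gave back the reads: 13461427 to 21034501 per library. For S6k2_RK replicate 1 that value was 0.9996 normalized counts, close to 1, but its values were not whole numbers (Rps6kb2 at 55.98 for 56 reads). The edgeR test was also run without this library. Within each group no library was a copy of another, with chi-square per degree of freedom at 7.63 to 20.4 between its libraries. Replicates are separate mice, and p-values measure the spread between them.

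The 11953 genes averaging 10 normalized counts or more were tested with limma 3.58.1 (R 4.3.3, trend option, 1 fit of all 9 libraries) on log2 values with a pseudocount of 1. Calls are two-sided, at p below 0.05 after Benjamini-Hochberg adjustment over every tested gene. Ratios of 2 genes were compared by exact permutation tests. The limma fit was tested on simulated counts, for S6k2_RK against WT only, and the other tests were not. Alternatives were other pseudocounts, filters and scalings, a robust fit, the groups compared alone, a replicate block, each library left out in turn, and count tests on recovered reads (edgeR 4.0.16, DESeq2 1.42.0); the count test without S6k2_RK replicate 1 was added after the data were seen. Coordinates and merged exon lengths are from GENCODE mouse release 21 on GRCm38, and promoters from RefSeq on GRCm38.p6. The 10 genes, the lists and the tests were chosen with earlier results of these data known. All 10 genes are described. From each pathway list up to 3 called genes with the smallest p are named, and for each S6 kinase gene the 3 genes nearest in course over the libraries. Intervals cover counting error only.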

Additional observations from a re-analysis of the deposited data

How the results depend on the processing

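Rps6kb2 rests on 19 to 73 reads a library. The 30 fold changes of the 10 genes were recomputed under up to 21 alternatives: 573 values kept their direction and side of the threshold, 18 lost a call, 10 gained one and 26 changed sign; the cause was not tested. Equal totals turned Rps6ka1 (-0.10), Rps6ka3 (-0.25), Eif4b (-0.037) and Eif4ebp1 (-0.12) in Snd1_KI against WT, Rps6ka1 (-0.22), Eef2k (-0.23), Eif4ebp1 (-0.15) and Eif4ebp2 (-0.12) in S6k2_RK against WT, and Rps6ka1 (-0.12) and Eif4ebp1 (-0.027) between the mutants. Genes called of the 10 in Snd1_KI were then 1 in place of 2. Rps6ka3, near 0, turned in S6k2_RK with TMM scaling (0.0079). In edgeR without S6k2_RK replicate 1, chosen after seeing the data, it was 0.048 against WT and 0.027 between the mutants, and Eif4ebp2 was 0.11 between the mutants.

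Leaving out 1 library gave 0 to 2 called genes of the 10 in Snd1_KI and 2 to 5 in S6k2_RK. Signs changed for Rps6ka3 (-0.020 to 0.10 in Snd1_KI, -0.058 to 0.067 in S6k2_RK) and, between the mutants, for Rps6kb1 (-0.096 to 0.0083), Rps6ka3 (-0.10 to 0.037), Poldip3 (-0.096 to 0.024) and Eif4ebp2 (-0.14 to 0.12). The ratio of Eif4ebp1 to Eif4ebp2 in S6k2_RK against WT ranged from -0.23 to 0.17 and that of Eif4b to Pdcd4 between the mutants from -0.051 to 0.071. Genes called in all were 222 to 824 in Snd1_KI (670 with all libraries), 748 to 1864 in S6k2_RK (1437) and 4 to 85 between the mutants (14). Between the mutants 55 genes were called by DESeq2, 35 at equal totals, 23 in the robust fit and 70 by edgeR without S6k2_RK replicate 1, and equal totals gave 1626 and 5991 genes against WT. A minimum mean of 50 gave 409 genes in Snd1_KI and leaves no value for Rps6kb2, whose mean is 45.7.

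No pairing by replicate number was seen: same-numbered libraries correlated at -0.0781 to 0.0454 in their deviations from the group means, with 0 of 9 pairs over 0.1. WT replicate 3 and S6k2_RK replicate 2, which differ in number, correlated at 0.127. With 3 libraries a group, such correlations cannot show that mice were not paired. With the replicate block 2, 3 and 0 of the 10 genes were called, as without it, and 589, 1304 and 11 genes in all.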
